A study of Mus musculus with 6 samples.

Results

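The receptors of the interleukin 6 (IL-6) family and their closest signalling relatives were described in plasmacytoid dendritic cells (pDCs), which are dendritic cells specialised in making type I interferon. The family was named as 10 genes: Il6st, Il6ra, Il31ra, Osmr, Lifr, Il27ra, Il11ra1, Il12rb1, Il12rb2 and Il17ra. A gene entered through a probe set whose single annotated symbol was its own. Where a gene had several, its probe set was chosen by the mean level over all 6 arrays, which is blind to genotype. This gave 9 of the 10 genes, out of 19937 genes in all. Each of the 9 had 1 probe set, so no measured value decided which probe set was described. The genes and the lists below were chosen with earlier results of these data known. Il11ra1 had no probe set of its own name, and its expression was not analysed here. Cells positive for B220 and SiglecH were taken from the spleens of wild-type (WT) mice and of IRF8-deficient (KO) mice, with 3 samples per genotype, 1 Affymetrix array each. IRF8 is a transcription factor of dendritic cell and monocyte development. The sources used here give no strain, age, altered allele or number of animals per sample. P-values therefore reflect the spread among these arrays, part of which may be technical.

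Receptors of the IL-6 family share gp130, the product of Il6st. Some ligands first bind their own alpha chain, such as the IL-6 receptor (Il6ra) or the IL-11 receptor (Il11ra1), and the ligand then joins gp130 to gp130 or to a related long chain, such as the leukaemia inhibitory factor receptor (Lifr) or the oncostatin M receptor (Osmr). Bound receptors activate JAK kinases, which phosphorylate chiefly STAT3, and SOCS3 closes the loop by binding gp130. The IL-12 receptor chains Il12rb1 and Il12rb2 resemble gp130 in structure and signal mainly through STAT4. Il17ra belongs to another receptor family with a SEFIR domain, so the family name does not describe this gene. In dendritic cells, gp130 signals are known to act on maturation and on the balance between dendritic cells and macrophages.

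Values are deposited log2 expression levels, where 1 unit is a 2-fold difference, and they are compared within a gene and never between genes. Array medians ran from 5.53 to 5.56. Irf8 itself averaged 10.14 ± 0.15 in WT against 10.48 ± 0.32 in KO (SD, n = 3 per genotype; limma adjusted p = 0.425). The altered part of Irf8 is unknown here, so this level checks nothing and every direction rests on the genotype labels. The pDC gate gene Siglech averaged 12.62 in WT against 12.27 in KO (limma adjusted p = 0.169). KO replicate 1 stood apart on the second principal component, with a score of 37.4, and WT replicate 1 followed with 16.3, while the other 4 arrays lay between -16.8 and -8.2. The summed level of 13 neutrophil markers, as log2 of the sum, was 14.11 in KO replicate 1, 10.77 and 9.35 in KO replicates 2 and 3, and 8.31 to 10.61 in WT. In such bulk samples, fewer cells of a type and less RNA per cell cannot be told apart.

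Of the measured chains, 3 were higher in KO: the shared chain Il6st, the IL-31 receptor chain Il31ra and Il17ra. The other 6 measured genes passed the test in neither direction. The count of 3 of 9 genes higher stands beside 2.3% of all genes called higher in KO, and the count of 0 lower beside 2.08% called lower (limma with Benjamini-Hochberg adjustment over 19937 genes). At an unadjusted p under 0.05, Il12rb1 was the single gene of the family with a negative difference. The median difference of the 9 genes was -0.03, next to -0.04 over all genes, with 4 positive and 5 negative differences. In 4 of the 9 genes the groups did not overlap, where 20.4% of all genes had groups that did not overlap. All KO values lay above all WT values in the 3 genes that rose, as in 8.71% of all genes. An unequal-variance test per gene called none of the 3 after Benjamini-Hochberg adjustment (adjusted p 0.396 for Il6st, 0.403 for Il31ra and 0.427 for Il17ra).

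**Figure D1:**
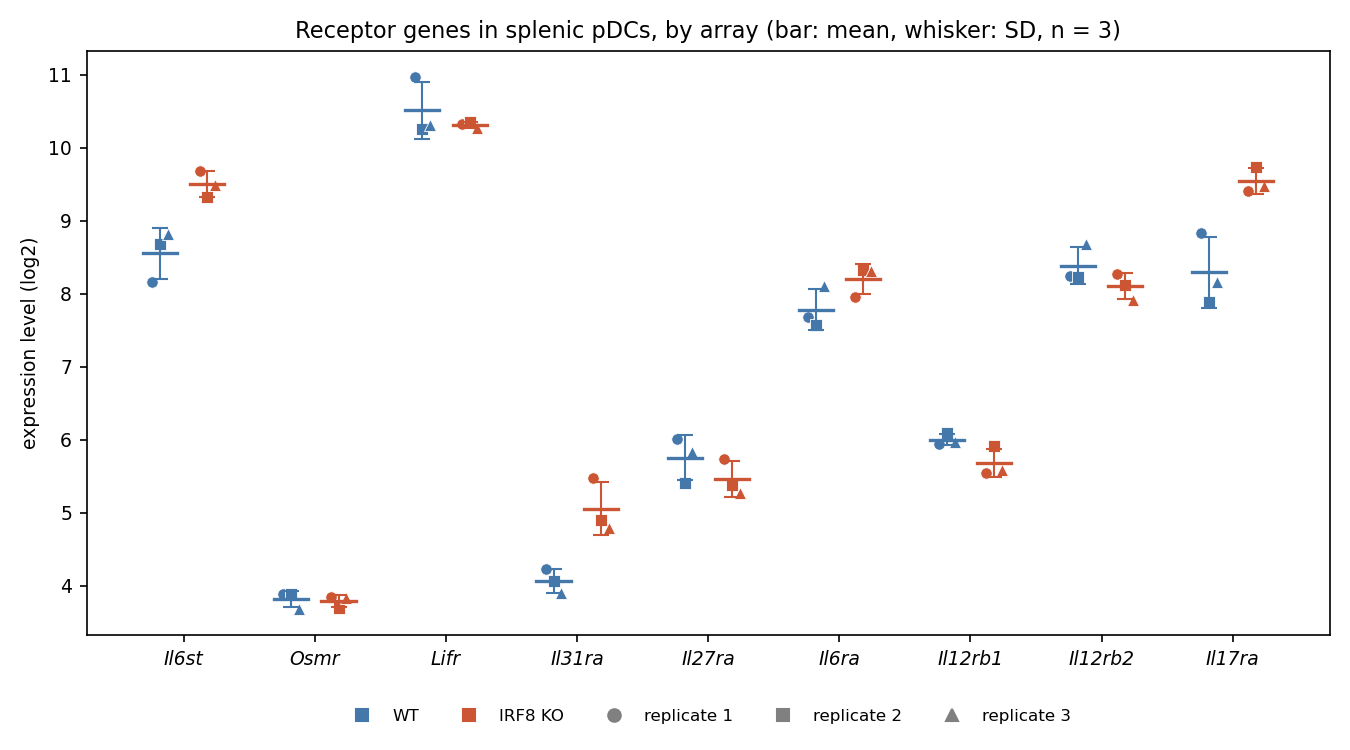
Expression level (log2, vertical axis) of the 9 measured genes (horizontal axis) on each of the 3 WT and 3 IRF8 KO arrays, with the marker shape giving the replicate number, the bar the mean and the whisker the SD. KO points lie above all WT points for Il6st, Il31ra and Il17ra and below them for Il12rb1, and heights are to be compared within a gene.

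Il6st, which encodes the signal-transducing chain gp130, was 1.93-fold higher in KO. It measured 8.16, 8.68 and 8.82 in WT replicates 1 to 3 and 9.68, 9.33 and 9.49 in KO replicates 1 to 3. The lowest KO array lay above the highest WT array, and WT replicate 1 was the low sample of its group. The means were 8.55 ± 0.35 and 9.50 ± 0.18 (SD, n = 3 per genotype), which gave a log2 difference of 0.95 (SE 0.19, 95% interval 0.51 to 1.39, limma adjusted p = 0.035). An exact permutation test over the 20 relabellings gave p = 0.10, its lowest possible value. The call was lost when WT replicate 1, 2 or 3 or KO replicate 2 or 3 was left out, with differences of 0.75 to 1.08 and a highest limma adjusted p of 0.115. It was kept without KO replicate 1 (difference 0.86, limma adjusted p = 0.0491). That array had the highest neutrophil and cell cycle marker sums, and the part of either in the Il6st level was not tested.

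Il31ra, which encodes the gp130-like chain that pairs with the oncostatin M receptor to bind IL-31, was also higher in KO. It measured 4.23, 4.06 and 3.89 in WT replicates 1 to 3 and 5.47, 4.90 and 4.79 in KO replicates 1 to 3. The groups did not overlap, and KO replicate 1 was the high sample. The means were 4.06 ± 0.17 and 5.05 ± 0.36 (SD, n = 3 per genotype), which gave a log2 difference of 0.99 (SE 0.19, 95% interval 0.54 to 1.44, limma adjusted p = 0.0309). The WT mean was under 4.58, the 25th percentile of the genes' mean levels. With no background measurement to set against it, the difference may understate the change and no fold is given. Without KO replicate 1 the difference was 0.79 (limma adjusted p = 0.018). Leaving out any single WT array, or KO replicate 2, ended the call (highest limma adjusted p 0.114).

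Il6st and Il31ra are next to each other on chromosome 13 in the RefSeq gene order of the mouse assembly GRCm38.p6, with 0 annotated genes between them. Because both rose and lie side by side, the 250 bases before the annotated start of each are shown, read 5′ to 3′ on the strand of the gene. The Il6st stretch is chr13:112463820-112464069 on the plus strand, and the Il31ra stretch is chr13:112580663-112580912 on the minus strand. Capitals mark matches to the motifs searched.
Il6st: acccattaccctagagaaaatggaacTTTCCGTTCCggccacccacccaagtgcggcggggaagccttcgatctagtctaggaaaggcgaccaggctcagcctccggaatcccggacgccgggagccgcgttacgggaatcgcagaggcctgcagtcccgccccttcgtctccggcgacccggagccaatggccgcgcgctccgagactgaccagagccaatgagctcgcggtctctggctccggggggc
Il31ra: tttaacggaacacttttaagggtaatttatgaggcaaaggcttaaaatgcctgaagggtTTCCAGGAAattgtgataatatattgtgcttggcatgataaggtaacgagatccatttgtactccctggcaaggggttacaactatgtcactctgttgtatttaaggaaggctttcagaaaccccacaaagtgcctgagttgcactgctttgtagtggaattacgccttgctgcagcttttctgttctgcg
The motifs searched on both strands were GAAA, 2 bases of any kind and GAAA, the core of an interferon-stimulated response element; GGAA, 2 bases of any kind and GAAA, a composite site of ETS factors and IRF8; and TTC, 3 bases of any kind and GAA, a STAT site. The Il6st stretch held 1 composite match, read on the minus strand and beginning 224 bases before the start, and none of the other motifs. The Il31ra stretch held 1 STAT match, beginning 191 bases before the start, and neither of the others. Among 32851 RefSeq promoter stretches of the same length, 2.98% held the first motif, 2.3% the composite motif and 7.02% the STAT motif. A match is a description of letters and not a measured site. The GC content was 66.0% before Il6st and 42.0% before Il31ra, with a median of 52.4% over all stretches. Promoter sequences were found for 7 of the 10 genes of the family, and Il17ra, Il27ra and Il12rb1 were not among them. Of the other 5, Il12rb2, which was not called, also held 1 STAT match, beginning 123 bases before its start, and the stretches of Il6ra, Il11ra1, Lifr and Osmr held none of the 3 motifs.

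Neighbours of this pair did not pass the test. Of the 10 measured genes on either side, 5 each way, 0 were called by limma in either direction, while Dhx29 and Plpp1 had an unadjusted p under 0.05. Differences ran from -0.61 for Dhx29 to 0.30 for Slc38a9. This look at neighbours was chosen after the values were seen. Osmr and Lifr, both on chromosome 15, are a second such pair, with 0 protein-coding genes between them, and neither passed the test.

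**Figure D2:**
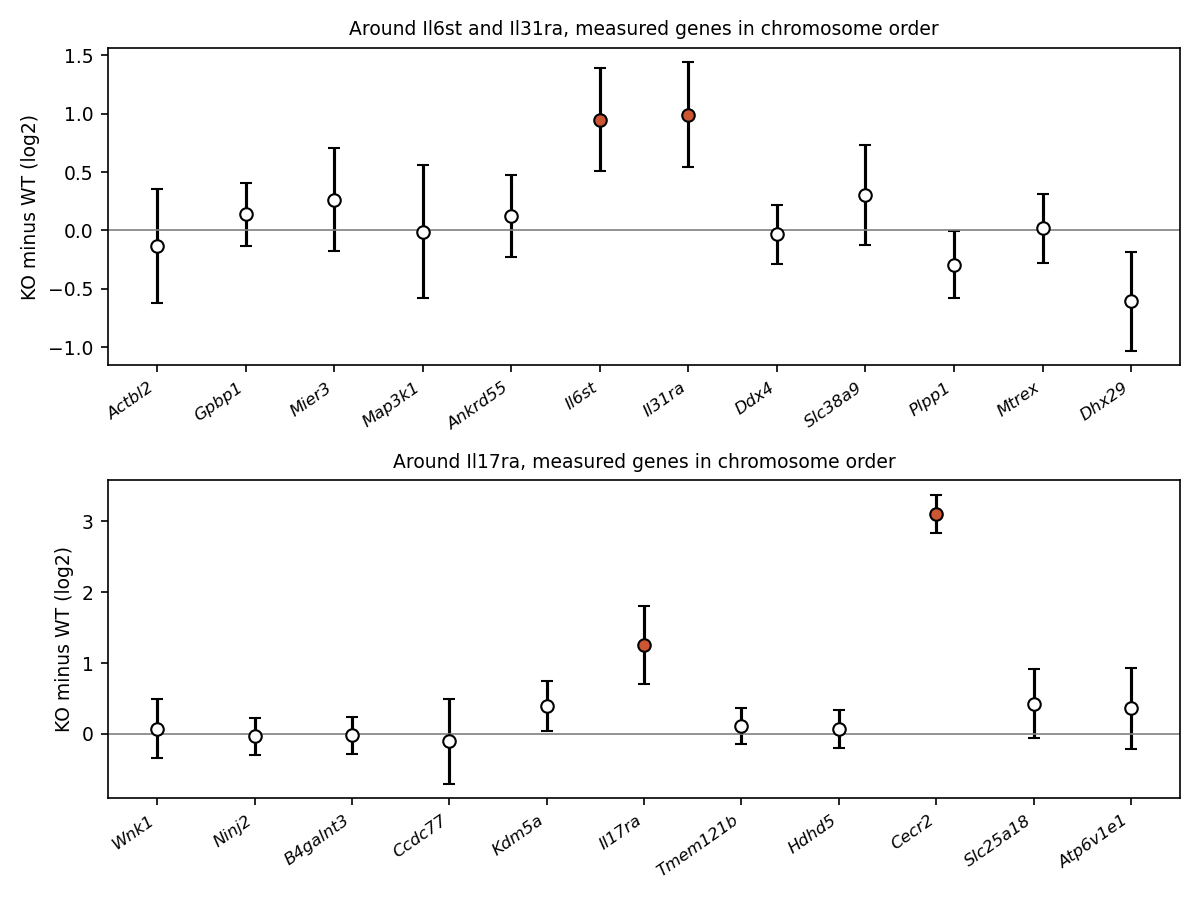
Difference KO minus WT (log2 units, vertical axis, with the 95% interval of the limma fit) of measured genes in chromosome order (horizontal axis, not to distance) around Il6st and Il31ra (top) and around Il17ra (bottom), with filled points past an adjusted p of 0.05. In the top panel Il6st at 0.95 and Il31ra at 0.99 are the filled points, and in the bottom panel Il17ra at 1.25 and Cecr2 at 3.11.

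Il17ra, the common receptor chain for IL-17A and several other IL-17 cytokines, had the largest difference of the family and was 2.38-fold higher in KO. It measured 8.83, 7.89 and 8.16 in WT replicates 1 to 3 and 9.41, 9.74 and 9.47 in KO replicates 1 to 3. WT replicate 1 was the high sample of its group and still lay below every KO array. The means were 8.29 ± 0.48 and 9.54 ± 0.18 (SD, n = 3 per genotype), which gave a log2 difference of 1.25 (SE 0.24, 95% interval 0.70 to 1.80, limma adjusted p = 0.0273). Leaving out both arrays numbered 1 gave a difference of 1.58 (limma adjusted p = 0.0028). Leaving out WT replicate 2 or 3, or KO replicate 2 or 3, ended the call (highest limma adjusted p 0.118).

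The 3 genes whose pattern was most like that of Il17ra were found by the root mean square distance over the 6 arrays after subtracting each gene's WT mean. They were Il13ra1, a chain of the IL-13 receptor, at a distance of 0.134 log2 units, Desi1 at 0.153 and Trp53i11 at 0.163. Il13ra1 measured 6.87, 5.99 and 6.31 in WT and 7.74, 7.65 and 7.68 in KO replicates 1 to 3. Like Il17ra, it was highest within WT in replicate 1 and lowest in replicate 2. This order and its difference of 1.30 resemble those of Il17ra because the measure of likeness, taken over all 6 arrays, selected Il13ra1 so.

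The other long chains of the gp130 type did not pass the test. Lifr, the chain that carries leukaemia inhibitory factor signals with gp130, measured 10.96, 10.26 and 10.31 in WT replicates 1 to 3 and 10.32, 10.35 and 10.27 in KO replicates 1 to 3. Apart from the high WT replicate 1, the values of the groups were interleaved. The log2 difference was -0.20 (95% interval -0.64 to 0.25, limma adjusted p = 0.718), and without WT replicate 1 it was 0.03. Osmr, the chain shared by oncostatin M and IL-31, measured 3.68 to 3.88 on the 6 arrays, below the 25th percentile in both groups. Its difference was -0.03 (95% interval -0.29 to 0.23, limma adjusted p = 0.952). Il31ra thus rose while its partner chain gave a low signal on every array.

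Il27ra, the receptor chain that joins gp130 to bind IL-27, measured 6.01, 5.41 and 5.83 in WT replicates 1 to 3 and 5.74, 5.37 and 5.27 in KO replicates 1 to 3. The groups overlapped, and the log2 difference was -0.29 (95% interval -0.74 to 0.16, limma adjusted p = 0.552). A fall of the size of the rises in Il6st or Il17ra lies outside this interval.

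Il6ra, the alpha chain that binds IL-6 and hands it to gp130, was not called. It measured 7.68, 7.57 and 8.10 in WT replicates 1 to 3 and 7.96, 8.33 and 8.31 in KO replicates 1 to 3. KO replicate 1 lay below WT replicate 3, so the groups overlapped. The log2 difference was 0.41 (SE 0.17, 95% interval 0.01 to 0.82), and the limma adjusted p of 0.299 did not pass the threshold. The adjusted p stayed between 0.11 and 0.618 over the 16 alternatives tried. KO replicate 1, with the highest neutrophil and cell cycle marker sums, had the lowest Il6ra level of the KO arrays. The part of either signal in the Il6ra level was not tested.

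Both chains of the IL-12 receptor had negative differences that did not pass. Il12rb1, shared by the receptors of IL-12 and IL-23, measured 5.94, 6.09 and 5.96 in WT replicates 1 to 3 and 5.55, 5.91 and 5.59 in KO replicates 1 to 3. Every KO array lay below every WT array, by a narrow margin in KO replicate 2, as was the case for 11.7% of all genes. The log2 difference was -0.32 (SE 0.13, 95% interval -0.62 to -0.01, limma adjusted p = 0.285). Il12rb2, the chain that recruits STAT4, measured 8.24, 8.23 and 8.68 in WT replicates 1 to 3 and 8.27, 8.12 and 7.92 in KO replicates 1 to 3. The groups overlapped, with a log2 difference of -0.28 (95% interval -0.66 to 0.10, limma adjusted p = 0.478).

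**Figure D3:**
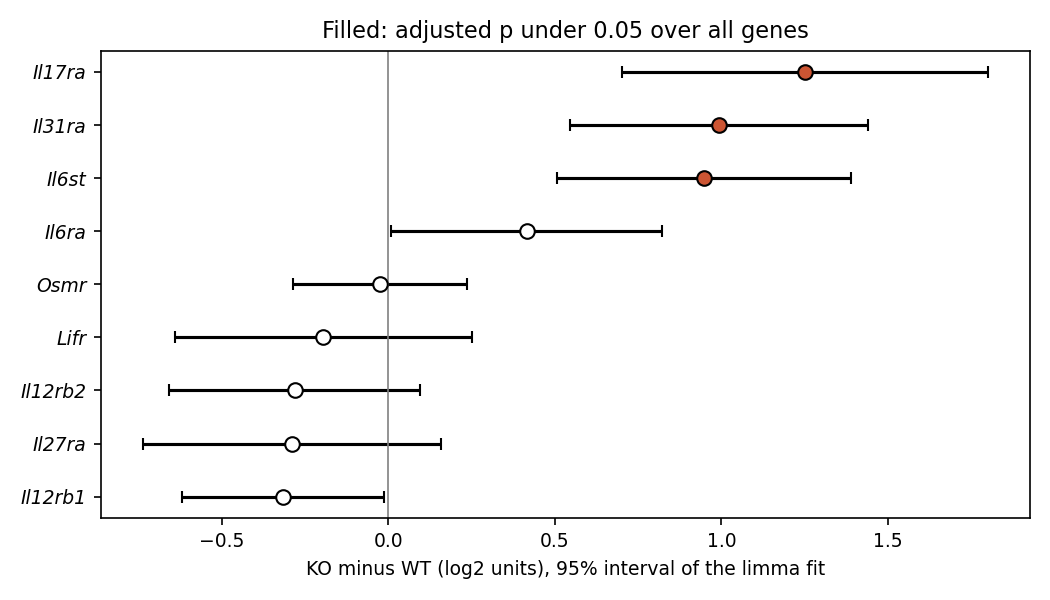
Difference KO minus WT (log2 units, horizontal axis) of the 9 measured genes, with the 95% interval of the limma fit as whiskers and filled points for an adjusted p under 0.05 over all genes. Il17ra at 1.25, Il31ra at 0.99 and Il6st at 0.95 are filled, and the open points run from 0.41 for Il6ra to -0.32 for Il12rb1.

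The ligands and signalling genes of the pathway were read from 6 lists holding 73 different genes, of which 68 were measured. Of the 68, 8 rose and 1 fell, where 4.38% of all genes were called in either direction. Of 10 ligands of the gp130 family, 0 passed the limma test in either direction, and 2 had an unadjusted p under 0.05, Ebi3 and Lif. Ebi3, the beta subunit of IL-27, measured 7.42, 7.10 and 6.68 in WT and 8.08, 7.90 and 7.58 in KO replicates 1 to 3, a log2 difference of 0.79 (limma adjusted p = 0.0986). Lif averaged 4.60 ± 0.20 in WT against 5.36 ± 0.55 in KO (SD, n = 3 per genotype; limma adjusted p = 0.202). Without KO replicate 1, Lif was called (log2 difference 0.99, limma adjusted p = 0.0447), and with both arrays numbered 1 left out Ebi3 was (0.85, limma adjusted p = 0.0465). Without KO replicate 3, 1 ligand was called as well, which was neither Ebi3 (limma adjusted p = 0.121) nor Lif (limma adjusted p = 0.362). Of 8 other receptor chains, which include Csf3r, Il23r and Il17rb, 0 passed limma's threshold in either direction and 0 had an unadjusted p under 0.05, with a list median of -0.02. The smallest p among them belonged to Il17rb, which averaged 7.50 in WT against 7.22 in KO (limma adjusted p = 0.515), and Il17rd measured 5.54 and 5.42 (0.751).

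On the IL-12 side Il12a, the gene of 1 ligand subunit, and Stat4 rose while the receptor chains did not pass. Of 9 ligands of the IL-12 and IL-17 families, 1 rose. Il12a, the p35 subunit of IL-12, was 3.56-fold higher in KO, from 7.74, 6.87 and 8.03 in WT to 9.14, 9.37 and 9.62 in KO replicates 1 to 3 (log2 difference 1.83, limma adjusted p = 0.0131). The lowest KO array lay above every WT array, and the call was lost without KO replicate 2 or 3. Il12b, its p40 partner, averaged 4.82 in WT against 4.84 in KO (limma adjusted p = 0.985) and is named after its values were seen. Its probe set was not matched to a RefSeq transcript of Il12b, so this value does not show that Il12b was unchanged. Stat4, the transcription factor that IL-12 receptors activate, was 8.98-fold higher in KO. It measured 5.78, 6.52 and 6.50 in WT and 9.33, 9.49 and 9.47 in KO replicates 1 to 3, a log2 difference of 3.17 (limma adjusted p = 0.000271). No single array left out ended this call. Beside it, 0 of 9 NK cell markers passed limma's threshold and 4 had an unadjusted p under 0.05. Of the 4, Eomes was lower, with every KO array below every WT array, and Nkg7, Klre1 and Klri2 were higher. Among 8 T cell markers 1 rose, Cd5. Over all genes, 2.3% were called higher. The summed NK marker level, as log2 of the sum, was 7.91 to 8.16 in WT and 8.32 to 9.13 in KO. The T cell sum was 10.07 to 10.30 in WT and 10.37 to 10.61 in KO. In the T cell list 3 differences were positive and 5 negative, with a median of -0.05. Cd3d, Cd3e and Cd3g were among the negative ones. The part of such cells in the Stat4 level was not tested.

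Among the 13 measured kinases, STATs and adaptors, Stat4 was the 1 that rose and Jak2 the 1 that fell, with a list median of 0.10. Over all genes, 2.3% were called higher and 2.08% lower. At an unadjusted limma p under 0.05 stood 7 of the 13, next to 3203 of all 19937 genes. Besides Stat4 and Jak2 these were Stat5b and Traf6, higher, and Tyk2, Shc1 and Traf3ip2, lower, named after their values were seen. Jak2, a kinase that binds gp130 and the IL-12 receptor, measured 8.99, 8.82 and 8.82 in WT and 8.21, 8.32 and 8.18 in KO replicates 1 to 3. Every KO array lay below every WT array, and the log2 difference was -0.65 (limma adjusted p = 0.0168). The count of 1 lower gene became 3 without KO replicate 1 and 3 with array weights, and 0 without any other single array. Leaving out any single array other than KO replicate 1, or both arrays numbered 1, ended the Jak2 call, and its adjusted p reached 0.173 over all alternatives. Stat3, the main STAT of gp130 and named after its values were seen, measured 9.60, 9.70 and 10.07 in WT and 9.47, 10.41 and 10.48 in KO (log2 difference 0.33, limma adjusted p = 0.662). Its KO replicate 1 lay below all WT arrays and the other KO arrays above them.

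Of 12 negative regulators and sheddases, 2 rose and 0 fell, with a list median of 0.23, where 2.3% of all genes were called higher and 2.08% lower. Socs3, the feedback inhibitor that binds gp130, measured 8.35, 8.56 and 8.78 in WT and 9.19, 9.76 and 9.70 in KO replicates 1 to 3, a 1.98-fold rise (limma adjusted p = 0.0267). Cish, a SOCS protein induced through STAT5, measured 5.27, 5.01 and 4.79 in WT and 5.84, 5.99 and 6.06 in KO, a 1.92-fold rise (limma adjusted p = 0.0128). In both genes the groups did not overlap. Socs3 was no longer called with the mean of its probe sets or when any array other than KO replicate 1 was left out, and Cish when WT replicate 2, KO replicate 2 or KO replicate 3 was left out. Adam10 and Adam17, proteases known to shed the IL-6 receptor and named after their values were seen, had log2 differences of 0.17 and 0.34 (limma adjusted p = 0.662 and 0.568).

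Of 16 target genes of STAT3, 4 rose and 0 fell, where 2.3% of all genes were called higher and 2.08% lower. The list median was 0.73 next to -0.04 over all genes. Prdm1, which encodes the repressor BLIMP1, was 11.2-fold higher in KO. It measured 5.75, 5.54 and 6.27 in WT and 9.02, 9.19 and 9.80 in KO replicates 1 to 3 (limma adjusted p = 0.000412). Pim1, a serine kinase, averaged 8.13 ± 0.35 in WT against 9.60 ± 0.62 in KO (SD, n = 3 per genotype), a 2.77-fold rise (limma adjusted p = 0.0451), and Nfkbiz, an NF-kB cofactor that IL-17 also induces, 8.73 ± 0.25 against 9.73 ± 0.32, a 2.01-fold rise (limma adjusted p = 0.0307). The fourth was Myc, the subject of the series title, with a log2 difference of 2.88 (limma adjusted p = 0.0029). Cebpb, named after its values were seen, had the lowest difference of the list at -0.89 (limma adjusted p = 0.0909).

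The STAT3 target list differed between the KO arrays. Relative to the WT mean, its median shift was 0.29, 0.84 and 1.00 in KO replicates 1 to 3, and -0.12 to 0.14 in the WT arrays. Pim1 and Nfkbiz were no longer called when any array other than KO replicate 1 was left out, and 2 of the 16 genes then passed. Without KO replicate 1, 10 of the 16 rose, 10 with array weights, and 8 with both arrays numbered 1 left out. Over all genes, 780, 716 and 741 were called higher under these settings, against 459 in the main fit. Handling stress genes, which share Fos and Junb with the list, shifted by 0.09, 0.49 and 0.58 in KO replicates 1 to 3 and by 0.05, 0.21 and -0.29 in WT, and their part in the result was not tested. Among the receptor genes, Il6st and Il31ra were highest in KO replicate 1, while Il17ra, with shifts of 1.12, 1.45 and 1.18 in KO replicates 1 to 3, and Il6ra, with 0.18, 0.55 and 0.52, were lowest there, as the STAT3 target list was.

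**Figure D4:**
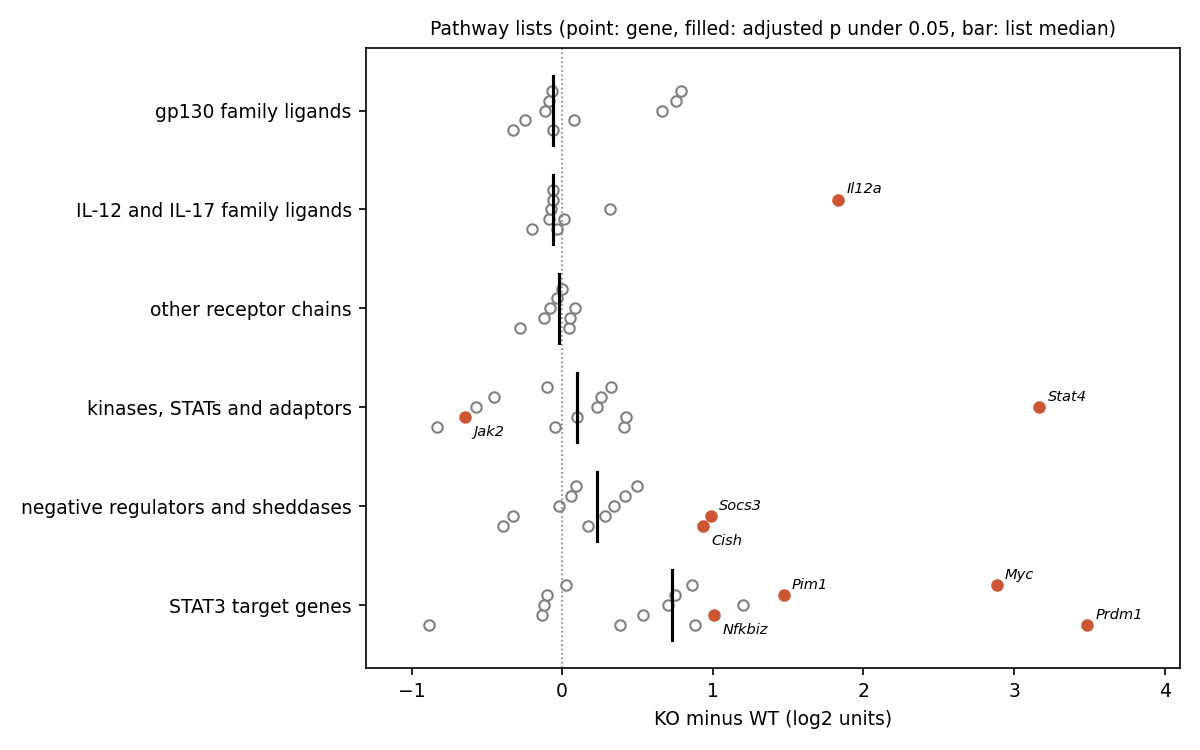
Difference KO minus WT (log2 units, horizontal axis) of the measured genes of 6 pathway lists (vertical axis, points spread for legibility), with filled and named points for an adjusted p under 0.05 and a black bar at each list's median. The STAT3 target list has its median at 0.73, and the medians of the other lists lie between -0.06 and 0.23.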

How the data were processed

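RNA was amplified by NuGen PICO SL and biotin-labelled, per the labels' protocols. The deposited values are log2 levels of 34760 probe sets; the scale was read from the values, and how the authors corrected, summarised and normalized them is not given in the sources used here. Probe sets were named through the platform annotation, and 21640 had 1 symbol. For genes with several, the brightest by 6-array mean was used. Genotypes were compared with limma 3.58.1 in R 4.3.3 (lmFit, eBayes, no covariates, no filter), two-sided, Benjamini-Hochberg adjusted over 19937 genes at 0.05. Exact permutation tests used all 20 relabellings. The test was checked on simulated data with 200 changed genes per run. It found 7.6% of changes of 0.5 log2 units and 85.2% of changes of 1 unit. A gene that was not called is thus not shown to be unchanged. Alternatives were other normalizations, probe set rules, variance models (array weights with statmod 1.5.0), a replicate block, an unequal-variance test and arrays left out. The number of arrays limits the precision. Promoters are RefSeq sequences of GRCm38.p6. The genes described and the lists were chosen with earlier results of these data known. All 10 family genes were named, plus per pathway list up to 4 genes past the threshold by smallest p, or 2 as values. Figures were drawn with matplotlib 3.10.9.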

Additional observations from a re-analysis of the deposited data

How the results depend on the processing

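The family counts of 3 higher and 0 lower kept their size under quantile normalization, median centring, the mean of probe sets, RefSeq-matched probe sets, a variance trend, array weights, the replicate block and the omission of both arrays numbered 1. Among bright genes alone 2 were called, Il6st and Il17ra, because Il31ra was below the limit and not tested. An unequal-variance test per gene called 0 higher in the family (adjusted p 0.396 for Il6st, 0.403 for Il31ra and 0.427 for Il17ra), with 2 genes higher and 2 lower over all genes, and it ended the calls of all 9 named pathway genes that had passed. Leaving out single arrays gave 0 to 3 family genes higher and 0 lower, 249 to 780 genes higher and 202 to 719 lower over all genes, against 459 and 415. Array weights gave 716 and 647 genes, leaving out both arrays numbered 1 gave 741 and 641, and the replicate block 707 and 655. The deviations of same-numbered samples correlated at 0.379, 0.097 and 0.252. The highest correlations of the same WT samples with other-numbered KO samples were lower, at -0.275, 0.058 and 0.2. Of the samples, 3 of 3 WT and 2 of 3 KO correlated best with their own number. The titles number the samples and state no pairing, so the main test used none. Whether same-numbered samples were handled together is not known here. The block also called Ebi3 (adjusted p 0.0111), and it gave 3 kinases, STATs and adaptors lower in place of 1 and 8 STAT3 targets higher in place of 4, with 1 lower. The next brightest probe set could not be tried because each gene had 1. No family gene changed sign while called.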

Other observations

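Around Il17ra on chromosome 6, 1 of the 10 nearest measured genes passed the test. Cecr2, a chromatin remodelling factor lying 3 measured genes from Il17ra, averaged 4.69 ± 0.06 in WT against 7.80 ± 0.14 in KO (SD, n = 3 per genotype), so that it was 3.11 log2 units higher (limma adjusted p = 2.13e-05). The genes between them, Tmem121b and Hdhd5, differed by 0.11 and 0.07. These neighbours were chosen after the values were seen.

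Marker lists of other cell types and states gave the following counts and summed levels, as log2 of the sum, and their part in the receptor results was not tested. These counts stand beside 2.3% of all genes called higher and 2.08% called lower. Of 9 B cell markers 3 rose, Cd79a, Blk and Fcer2a, with summed levels of 9.06 to 9.30 in WT and 9.98 to 10.02 in KO. In that list 5 differences were positive and 4 negative. Of 8 T cell markers 1 rose and 5 had a negative difference (10.07 to 10.30 and 10.37 to 10.61). Of 9 NK cell and 13 neutrophil markers 0 passed limma's threshold in either direction, and 4 and 0 had an unadjusted p under 0.05. The 4 NK markers were Eomes, lower in KO, and Nkg7, Klre1 and Klri2, higher in KO, with NK sums of 7.91 to 8.16 and 8.32 to 9.13. Of 11 macrophage and monocyte markers 1 fell (10.30 to 10.74 and 10.27 to 10.49). Of 6 plasma cell markers 1 rose (9.97 to 10.79 and 10.67 to 11.89). Of 8 cDC1 markers 2 rose, Cd8a and Tlr3, and 2 fell, Clec9a and Cadm1 (11.29 to 11.54 and 11.40 to 11.71). This sum hides opposite changes, as Clec9a averaged 10.16 in WT against 3.84 in KO and Cd8a 9.66 against 11.17. Of 6 cDC2 markers 1 rose and 2 fell (10.99 to 11.35 and 10.34 to 10.40). Of 12 pDC markers 4 fell (15.04 to 15.19 and 14.81 to 14.89). Of 3 erythroid, 9 cell cycle and 10 handling stress genes 0 passed limma's threshold, with 0, 3 and 4 at an unadjusted p under 0.05. The cell cycle sum was 11.36 in KO replicate 1 and 8.99 to 9.17 in the other KO arrays, next to 8.36 to 8.58 in WT.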
